A study of Mus musculus with 2 samples.

Results

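The vascular endothelial growth factor (VEGF) and angiopoietin axis was followed as 10 genes, 5 ligands (*Vegfa*, *Vegfc*, *Pgf*, *Angpt1* and *Angpt2*) and 5 receptors (*Kdr*, *Flt1*, *Flt4*, *Nrp1* and *Tek*), in lung cells of mice with intact *Pclaf* (wild-type, WT) or without it (knock-out, KO) after bleomycin injury. The members were taken by gene symbol from the 31053 genes of the count tables and not by a measured value, but with earlier results of these data known. All 10 were present once in each table. VEGF-A, made largely by alveolar epithelium, binds KDR (VEGFR2), which drives endothelial growth and permeability, and FLT1 (VEGFR1), which in good part acts as a trap for the ligand. VEGF-C signals mainly through FLT4 (VEGFR3) of lymphatic endothelium, placental growth factor binds FLT1, and neuropilin-1 is a co-receptor of KDR. Angiopoietin-1 from perivascular cells activates TEK (TIE2) and keeps vessels quiescent, whereas angiopoietin-2 mostly counters it.

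The *Pclaf* WT and *Pclaf* KO mice were 8 to 10 weeks old and both had received bleomycin into the airway 1 week before collection, so no uninjured lung was part of the comparison. The deposited design gives the dose as 1.35 U/kg. The methods name another dose for the injury model, so which one these mice received is not settled here. The methods name male mice only, and how many mice went into each library is not stated in the sources used here. Each genotype was 1 droplet library of 3′ tags, so no test between genotypes was possible, and the values below are summed unique molecular identifiers (UMIs) of a cell class, given per 1000000 UMIs of that class (CPM). The 95% intervals given in brackets, exact Poisson for levels, exact conditional for log2 ratios and exact binomial for shares of cells, cover counting error only and not the spread between animals. Tags of a gene pool its splice forms, so that soluble and membrane-bound *Flt1*, or the isoforms of *Vegfa*, were counted together.

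The WT library held 30669 barcodes and the KO library 17172, against 16000 cells loaded for each, and 30187 and 15637 remained after filtering, with median depths of 2127 and 5957 UMIs. *Pclaf* itself stood at 39.3 CPM (3763 UMIs) over the whole WT library and at 5.19 (529 UMIs) over the whole KO library. Both samples carry the label of Cd31-/Cd45-/Epcam+ epithelial cells, yet only 6.73% of WT cells fell in the epithelial compartment, 34.4% were endothelial and 43.2% immune, against 72.6%, 3.77% and 3.895% in the KO library. Shares of cells are therefore not read as shares of the lung, and KO endothelial values rest on 590 cells. RNA of *Xist* and of the Y-linked *Ddx3y* was counted in both libraries. *Xist* stood at 254 CPM in the WT and 498 in the KO library, and *Ddx3y* at 74.0 and 24.0. The part of the sex of the mice in the differences between genotypes was not tested. Between the libraries 163 barcodes, 0.949% of those of the KO library, were shared. Cells were grouped into 26 named classes by clustering with all 10 members left out of the clustering genes. A cluster was called by a name with "-like" only from its markers. Cycling immune-like cells numbered 884 in the WT and 48 in the KO library, and cycling endothelial-like cells 247 and 16. The *Pclaf* values of whole libraries therefore mix the make-up of the libraries with the genotype.

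Promoter sequences were available for 8 of the 10 members. Those of *Kdr*, *Flt1* and *Tek* are shown as examples of receptors that were mainly endothelial in the WT library and yet differed between endothelial classes. The endothelial compartment held 83.35%, 81.9% and 88.2% of their UMIs in the WT library, against 42.8%, 73.3% and 72.6% in the KO library. *Flt4*, at 86.7% and 71.1%, was another such receptor, and its promoter is not shown. Each line gives the 250 bases before the RefSeq transcription start (GRCm38.p6), 5′ to 3′ on the strand of the gene, at chr5:75978456-75978705 (minus strand) for *Kdr*, chr5:147726012-147726261 (minus strand) for *Flt1* and chr4:94739039-94739288 (plus strand) for *Tek*. Capitals mark GGAA, the core bound by ETS factors of endothelial cells, or TTCC, the same core on the opposite strand.
Kdr: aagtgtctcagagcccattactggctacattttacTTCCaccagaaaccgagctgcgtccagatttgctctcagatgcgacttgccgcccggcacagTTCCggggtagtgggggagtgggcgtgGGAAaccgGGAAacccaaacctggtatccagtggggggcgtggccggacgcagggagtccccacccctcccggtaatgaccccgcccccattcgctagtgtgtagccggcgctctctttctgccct
Flt1: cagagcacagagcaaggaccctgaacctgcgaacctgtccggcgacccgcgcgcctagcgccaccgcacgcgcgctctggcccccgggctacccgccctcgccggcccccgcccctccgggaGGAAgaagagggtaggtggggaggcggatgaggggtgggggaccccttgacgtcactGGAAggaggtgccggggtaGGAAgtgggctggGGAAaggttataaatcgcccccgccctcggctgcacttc
Tek: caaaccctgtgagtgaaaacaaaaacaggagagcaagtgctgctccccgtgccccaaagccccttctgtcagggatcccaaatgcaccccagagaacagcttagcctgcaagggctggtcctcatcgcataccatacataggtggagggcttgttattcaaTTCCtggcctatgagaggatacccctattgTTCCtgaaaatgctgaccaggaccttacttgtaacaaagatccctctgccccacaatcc
*Kdr* and *Flt1* each held 4 such cores and *Tek* held 2. Of all 32851 promoter windows of this length 93.4% held at least 1, with a median of 3. The GC content was 61.6% in the *Kdr* window, 70.4% in the *Flt1* window and 51.2% in the *Tek* window.

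**Figure D1:**
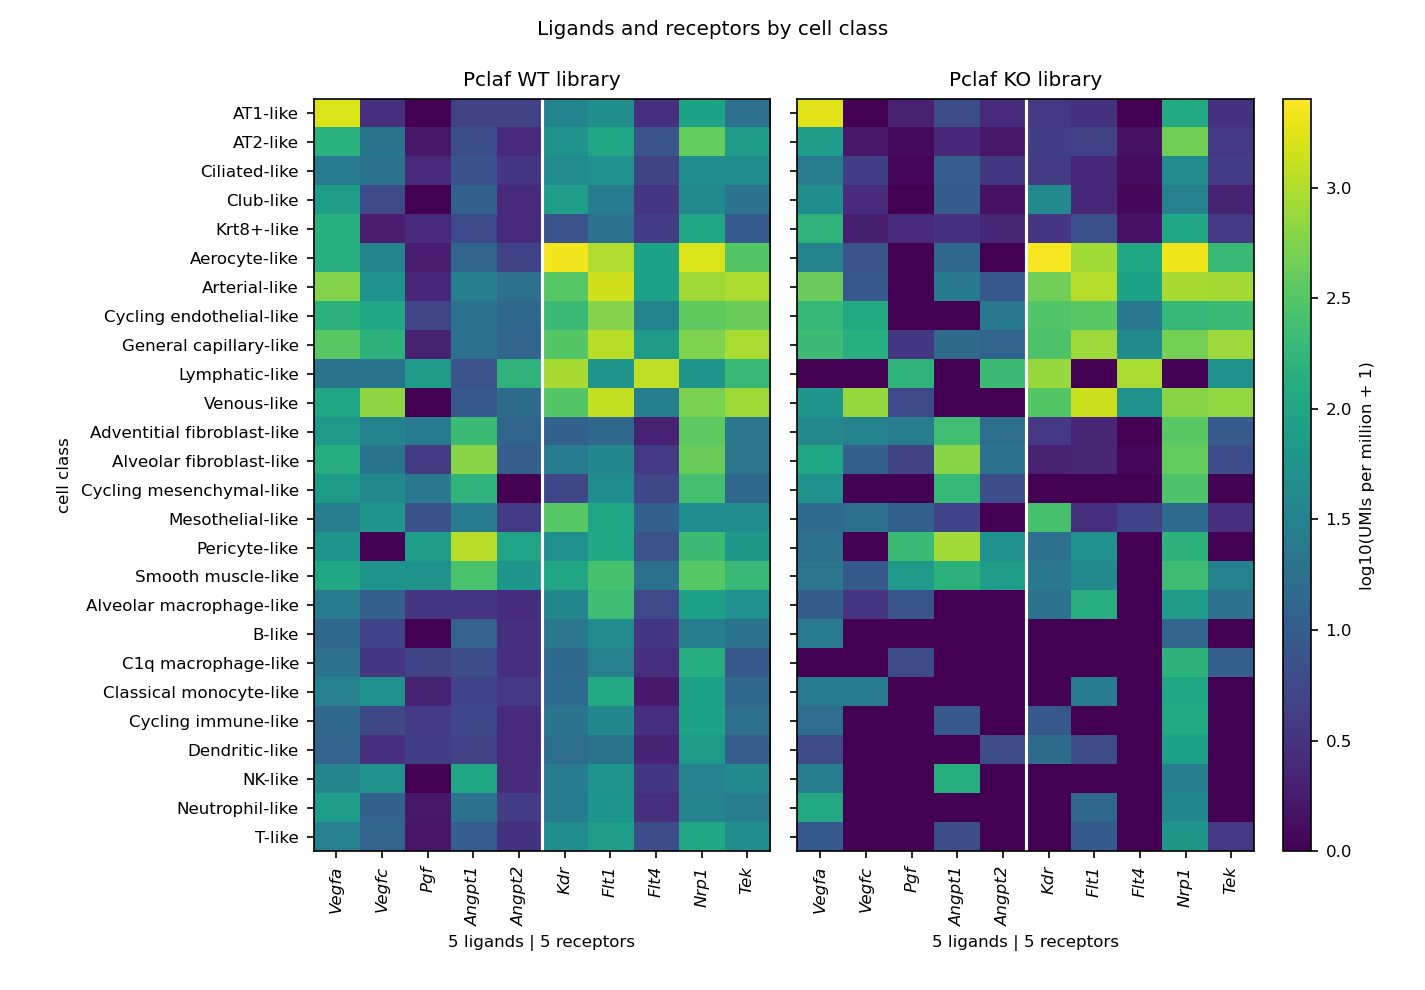
CPM (colour, log10 of the value + 1) of the 5 ligands (left of the white line) and 5 receptors (right) in the 26 named cell classes, *Pclaf* WT library at left and *Pclaf* KO library at right. *Vegfa* is brightest in AT1-like cells, *Kdr* and *Nrp1* in aerocyte-like cells, *Flt4* in lymphatic-like cells and *Angpt1* in pericyte-like cells in both libraries, while faint receptor signal spreads over more non-endothelial classes in the WT than in the KO library.

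*Vegfa* was highest in alveolar type 1 (AT1)-like cells, the flat cells of the gas exchange surface, in both libraries. It reached 1591 CPM (1486 to 1701) in 455 AT1-like cells of the WT library and 1740 (1681 to 1801) in 672 of the KO library. In AT2-like cells, the surfactant-producing progenitors, it was 146 (135 to 158) and 71.5 (69.2 to 73.9), and in *Krt8*+-like transitional cells 144 (123 to 166) and 160 (151 to 168). The log2 ratio of AT1-like over AT2-like cells was 3.44 (3.30 to 3.59) in the WT library and 4.61 (4.54 to 4.67) in the KO library. *Krt8*+-like cells differed from AT2-like cells by -0.03 (-0.27 to 0.21) in the WT library and by 1.16 (1.07 to 1.25) in the KO library. A cluster of AT2-like cells rich in endothelial RNA, described below, held 30.3% of the 663 *Vegfa* UMIs of WT AT2-like cells. In the KO library it held 1.16% of 3607. The part of endothelial RNA in these ratios was not tested. *Vegfa* was the only member 2-fold higher in AT1-like than in AT2-like cells of the WT library among the 6 with at least 50 UMIs over both classes, where 10.8% of all genes were 2-fold higher. Of these 6, *Flt1*, *Tek*, *Kdr* and *Vegfc* reached 50 UMIs mainly through AT2-like cells. The same endothelial-rich cluster held 371 of 464, 291 of 326, 175 of 247 and 83 of 91 of their UMIs in WT AT2-like cells. The count of members therefore says little about them. In the KO library *Vegfa* and *Angpt1* were 2 of 6, where 19.3% of all genes were, although *Angpt1* stood at only 5.3 CPM in AT1-like cells. After every cell was thinned to 1000 UMIs, 53.1% (44.1 to 62.0) of WT and 47.4% (42.5 to 52.3) of KO AT1-like cells held a *Vegfa* UMI, against 10.7% of WT AT2-like cells and 1.32% of WT B-like cells. Median depths of these groups were 742, 1392.5, 4994 and 1866.5 UMIs. Thinning kept 128 of the WT and 422 of the KO AT1-like cells, the others being shallower.

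The AT1-like class joined a pair of clusters that differed in depth, in leading marker genes and in *Vegfa*. In the deeper cluster, with 38 WT and 182 KO cells and medians of 4636 and 6481 UMIs per cell, *Vegfa* reached 3518 CPM in the WT and 2567 in the KO library. In the shallower cluster, with 417 WT and 490 KO cells and medians of 713 and 995.5 UMIs per cell, it was 621 and 286. Leading genes of the shallower cluster included *Krt18*, *Krt7* and *Krt8* beside *Ager*, whereas those of the deeper one held *Ager* without these keratins. With a second random draw, a shallow cluster of 75 WT and 337 KO cells led by *Cryab* and *Krt18* was named *Krt8*+-like. The part of depth or of transitional cells in the *Vegfa* values was not tested. Within the deeper cluster the KO value was lower than the WT value, with a log2 ratio of -0.45 (-0.58 to -0.33), and within the shallower one likewise, at -1.12 (-1.40 to -0.83). Over the whole class the ratio was nonetheless 0.13 (0.02 to 0.24), where 72.9% of the KO against 91.6% of the WT AT1-like cells lay in the shallower cluster. The sign of the *Vegfa* difference between genotypes in AT1-like cells thus turned with the way the cells were pooled.

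**Figure D2:**
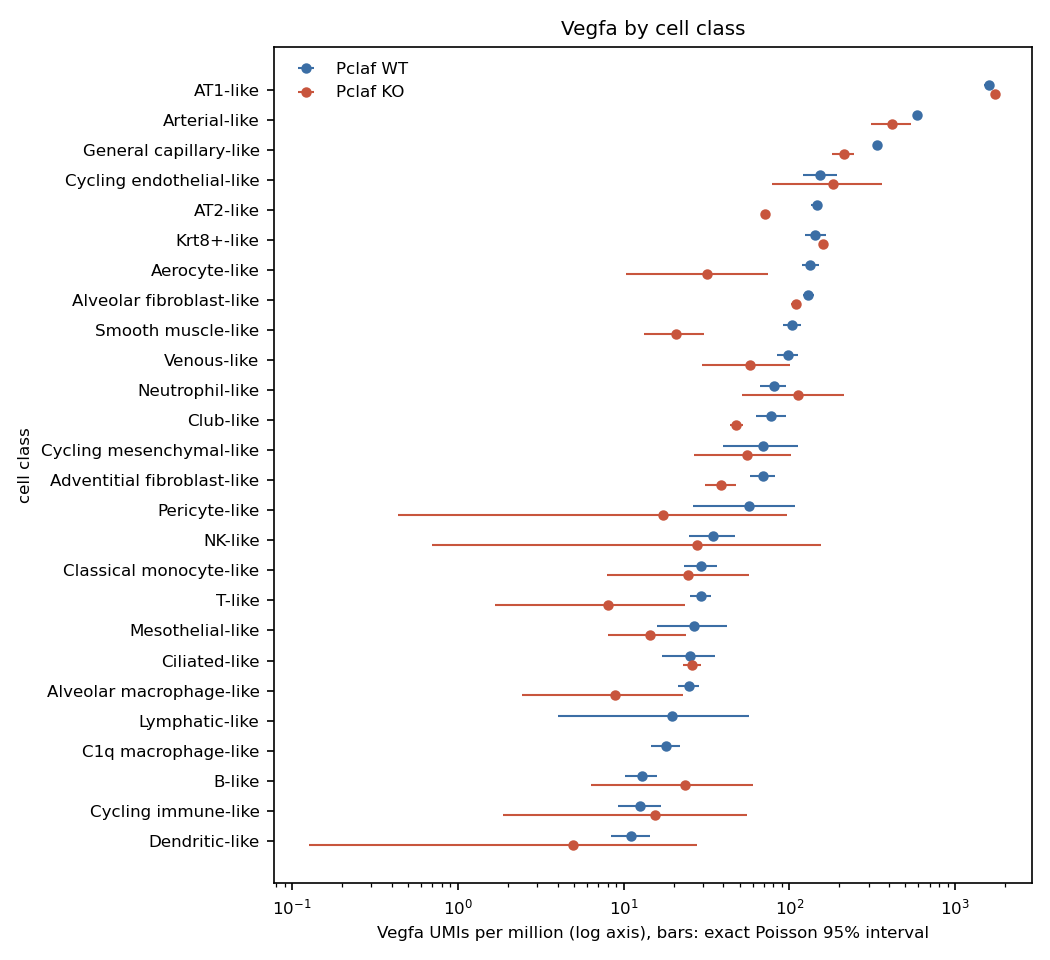
*Vegfa* CPM (log axis) in each named class, blue for *Pclaf* WT and red for *Pclaf* KO, with exact Poisson 95% intervals as bars and classes with 0 UMIs in a library left blank. AT1-like cells stand at 1591 and 1740, followed in both libraries by arterial-like and general capillary-like cells.

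By level among single classes, arterial-like and general capillary-like endothelial cells came next for *Vegfa*. As a whole the endothelial compartment held 278.9 CPM (62.0% of all *Vegfa* UMIs) of the WT and 184 (2.32%) of the KO library, against 192 (17.1%) and 110 (83.5%) in the epithelial compartment. Arterial-like cells held 585 CPM (553 to 618) in the WT and 414 (311 to 540) in the KO library. This class was a cluster of 722 WT cells with *Efnb2*, *Vwf*, *Bmp6* and *Calcrl* among its leading genes. With a second random draw only 236 WT cells were named arterial-like. A further cluster of 761 WT cells, led by *Bmp6*, *Ldb2* and *Efnb2*, then scored best as general capillary and stayed unnamed. How far the arterial-like class holds capillary cells was not tested. General capillary-like cells held 339 (329 to 349) and 212 (181 to 247), while aerocyte-like cells, the large capillary cells apposed to AT1 cells, held 134 (119 to 150) and 31.9. Arterial-like cells exceeded general capillary-like cells by 0.79 (0.70 to 0.88) on the log2 scale in the WT and by 0.97 (0.50 to 1.42) in the KO library, and aerocyte-like cells were below them by -1.34 (-1.51 to -1.17) and -2.73 (-4.37 to -1.48). By count of molecules, general capillary-like cells carried 38.4% of the 11399 *Vegfa* UMIs of the WT library and AT1-like cells 7.5%, whereas in the KO library AT2-like cells carried 33.3% and AT1-like cells 30.2% of 10823. These shares depend on how many cells of each class passed the sort. Among immune cells neutrophil-like cells led, with 80.2 CPM (66.8 to 95.6) in the WT library and 113 (51.7 to 215) in 41 cells of the KO library. This class included a cluster of 104 WT and 8 KO cells led by *S100a9*, *Hdc* and *Ccl4*. With 20 principal components a cluster of 55 WT and 6 KO cells led by *Ccl4*, *Hdc* and *Ccl3* was named basophil and mast. The part of such cells in the neutrophil-like level was not tested.

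The level of *Vegfc* was highest in venous-like cells. Venous-like cells held 680 CPM (642 to 719) in the WT library and 737 (625 to 863) in the KO library, and general capillary-like cells 155 (148 to 162) and 134 (110 to 162). The log2 ratio between the 2 classes was 2.14 (2.03 to 2.24) and 2.46 (2.09 to 2.83), the latter reaching 3.16 with the barcode limits read as UMIs. By count of molecules the order turned in the WT library, where general capillary-like cells carried 39.8% and venous-like cells 24.4% of 5019 *Vegfc* UMIs, against 17.9% and 26.3% of 586 in the KO library. Arterial-like and aerocyte-like cells were low, with 52.7 and 32.8 CPM in the WT library and 1 UMI each in the KO library. After thinning, 43.7% (39.1 to 48.4) of WT and 57.9% (40.8 to 73.7) of KO venous-like cells held a *Vegfc* UMI, against 0.387% of WT B-like cells. *Vegfa* ran the other way between these vessels, since venous-like cells were below arterial-like cells by -2.58 (-2.82 to -2.35) in the WT and by -2.85 (-3.89 to -1.93) in the KO library.

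*Pgf* was sparse, with 390 UMIs in the WT and 258 in the KO library, and was highest in vessel-associated classes. It reached 75.9 CPM (39.2 to 133) in pericyte-like, 71.4 (35.6 to 128) in lymphatic-like and 52.5 (44.2 to 61.9) in smooth muscle-like cells of the WT library, and 207 (107 to 362), 162 (33.4 to 473) and 66.8 (53.0 to 83.0) in the KO library. The intervals of these classes overlapped within each library except for pericyte-like against smooth muscle-like cells of the KO library. Alveolar fibroblast-like cells held 2.9 and 3.8. AT1-like cells of the WT library had 0 *Pgf* UMIs, for which the interval reaches up to 6.90 CPM.

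*Angpt1* was mesenchymal. Pericyte-like cells, which wrap capillaries, held 1094 CPM (937 to 1270) in the WT and 846 (626 to 1118) in the KO library, and alveolar fibroblast-like cells 617 (595 to 639) and 621 (605 to 637). Pericyte-like cells exceeded alveolar fibroblast-like cells by 0.83 (0.60 to 1.05) and 0.45 (0.01 to 0.85) on the log2 scale, of which the KO value fell below 0 under 3 processing alternatives, but the fibroblast-like class was larger and carried 52.4% of the *Angpt1* UMIs of the WT and 76.05% of the KO library. Smooth muscle-like cells held 262 (244 to 282) in the WT and 153 (132 to 177) in the KO library. A cluster of 163 WT and 10 KO cells carried 53.2% and 12.4% of these UMIs. Fibroblast genes (*Col3a1*, *Col1a2* and *Pdgfra*) were among its leading genes beside *Acta2*, and 35.6% and 50% of its cells were called doublets. Outside the mesenchyme natural killer (NK)-like cells stood out, with 101 (83.8 to 121) in the WT and 138 (44.9 to 323) in the KO library, where they numbered 583 and 14 cells. T-like cells held 9.2 and 5.4.

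*Angpt2* was low throughout, with 679 UMIs in the WT and 421 in the KO library. It was highest in lymphatic-like cells, at 162 CPM (105 to 240) in the WT and 216 (58.8 to 552, 4 UMIs) in the KO library, and was 94.9 (53.1 to 156) in WT pericyte-like and 59.9 (51.0 to 69.8) in WT smooth muscle-like cells. Among blood endothelial classes of the WT library the level was highest in arterial-like cells, at 17.2 (12.2 to 23.8). This order was not resolved, since the larger venous-like cluster held 16.35 CPM in the WT library. In the KO library arterial-like cells held 7.67, from 1 UMI. General capillary-like cells held 11.85 in the WT and 11.5 in the KO library.

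**Figure D3:**
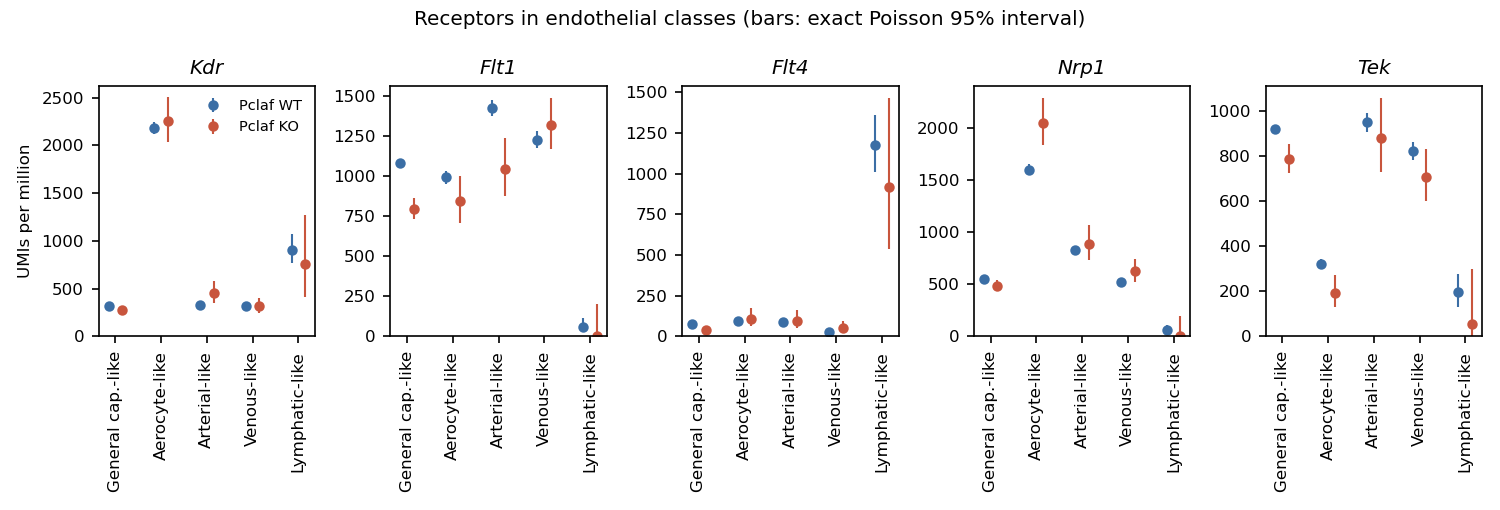
CPM of the 5 receptors in 5 endothelial classes, blue for *Pclaf* WT and red for *Pclaf* KO, with exact Poisson 95% intervals as bars and the axis of each panel starting at 0. *Kdr* and *Nrp1* peak in aerocyte-like cells and *Flt4* in lymphatic-like cells, and *Tek* is lower in aerocyte-like cells than in general capillary-like, arterial-like and venous-like cells in both libraries.

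Levels of receptor RNA differed between endothelial classes, though not for every receptor and every class. *Kdr* reached 2182 CPM (2121 to 2244) in aerocyte-like cells of the WT library and 2261 (2032 to 2510) in those of the KO library, followed by lymphatic-like cells at 908 (764 to 1072) and 755 (413 to 1266). General capillary-like, venous-like and arterial-like cells of the WT library lay together at 314 (305 to 324), 322 (296 to 349) and 325 (301 to 350), with overlapping intervals. The log2 ratio of aerocyte-like over general capillary-like cells was 2.80 (2.74 to 2.86) in the WT and 3.03 (2.78 to 3.28) in the KO library. After thinning, 86.2% (83.0 to 89.0) of WT aerocyte-like and 26.3% (25.0 to 27.6) of WT general capillary-like cells held a *Kdr* UMI, against 2.28% (1.74 to 2.94) of WT B-like cells, which should lack it. Median depths were 1886 UMIs in aerocyte-like, 1414 in general capillary-like and 1866.5 in B-like cells.

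*Nrp1* followed *Kdr* in the capillaries. Aerocyte-like cells held 1600 CPM (1548 to 1654) in the WT and 2051 (1832 to 2288) in the KO library, against 551 (538 to 563) and 485 (438 to 537) in general capillary-like cells, a log2 difference of 1.54 (1.48 to 1.60) and 2.08 (1.86 to 2.30). *Tek* ran opposite, at 320 (297 to 344) and 192 (129 to 274) in aerocyte-like and at 921 (904 to 938) and 788 (727 to 853) in general capillary-like cells, a log2 difference of -1.52 (-1.64 to -1.42) and -2.04 (-2.62 to -1.51). With the barcode limits of 200 and 5000 read as UMIs instead of genes, which leaves out the deepest cells, these differences were -2.52 (-2.72 to -2.32) and -6.20 (-11.5 to -3.72). Arterial-like cells, at 950 (909 to 992), and venous-like cells, at 822 (781 to 865), were near the general capillary level of *Tek* in the WT library. In 550 thinned aerocyte-like cells of the WT library 67.5% held both *Kdr* and *Nrp1* and 16.0% both *Kdr* and *Tek*, whereas in 4310 general capillary-like cells these shares were 12.2% and 16.0%.

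*Flt1* was shared by all blood vessels. It was 1425 CPM (1375 to 1476) in arterial-like, 1226 (1176 to 1278) in venous-like, 1080 (1062 to 1098) in general capillary-like and 991 (950 to 1034) in aerocyte-like cells of the WT library, in separate intervals (the order of the last pair turned with a mean of log-normalized values), and 1043 (875 to 1234), 1321 (1170 to 1487), 796 (734 to 861) and 843 (706 to 1000) in the KO library, where the order of the last pair was not resolved and turned under 9 alternatives. Lymphatic-like cells held only 58.4 in the WT library and 0 UMIs in the 9 KO cells. *Flt4* was the reverse, at 1174 (1010 to 1359) in lymphatic-like cells of the WT and 916 (534 to 1467) of the KO library, against 73.6 (69.0 to 78.4) and 40.9 (28.0 to 57.7) in general capillary-like cells and 28.3 (21.1 to 37.2) in WT venous-like cells.

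Against general capillary-like cells of the WT library, *Kdr* and *Nrp1* were at least 2-fold higher in aerocyte-like cells, 2 of 9 members with at least 50 UMIs, where 4.41% of all genes were. *Vegfa*, *Vegfc*, *Angpt2* and *Tek* were at least 2-fold lower there, 4 of 9, where 6.51% of all genes were. In arterial-like cells 1 of 9 differed by 2-fold (*Vegfc*, lower), where 5.06% of all genes did, and in venous-like cells 4 of 9 did (*Vegfc* higher, *Vegfa*, *Angpt1* and *Flt4* lower), where 10.1% did. In the 60 lymphatic-like cells all 9 differed by 2-fold, *Kdr*, *Flt4* and *Angpt2* being higher, where 32.5% of all genes did. These counts describe 1 library, since the members were left out of the clustering but other genes of the same cells built it.

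Some receptors were also found outside the endothelium. *Kdr* stood at 326 CPM (284 to 372) in mesothelial-like cells of the WT and 257.5 in those of the KO library, while *Flt1* in the same cells was 97.8 and 1.9. *Kdr* was 79.6 in club-like cells, the secretory cells of the airway, of the WT and 40.0 of the KO library, with *Flt1* at 24.1 and 1.4. *Flt1* was 222.5 in alveolar macrophage-like cells of the WT and 134 (102 to 172) of the KO library, with a UMI in 18.6% and 15.2% of cells after thinning against 3.95% of WT B-like cells, and 118 in WT classical monocyte-like cells. *Nrp1* was broad, at 390 (372 to 408) and 465 (459 to 471) in AT2-like and 433 (415 to 451) and 394.5 (382 to 407.5) in alveolar fibroblast-like cells of the WT and KO libraries, and AT2-like cells carried 72.5% of all *Nrp1* UMIs of the KO library. AT1-like cells held less, at 93.5 and 119, a log2 difference from AT2-like cells of -2.06 (-2.50 to -1.66) in the WT and -1.965 (-2.16 to -1.775) in the KO library.

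The receptor signal of other large non-endothelial classes was set against an endothelial transcript. For each UMI of *Cdh5*, the endothelial cadherin, the WT endothelial compartment held 0.30 UMIs of *Kdr*, 0.46 of *Tek* and 0.62 of *Flt1*. AT2-like cells of the same library held 0.32, 0.42 and 0.59, smooth muscle-like cells 0.27, 0.53 and 0.70, and alveolar fibroblast-like cells 0.40, 0.34 and 0.58. Other classes departed from the endothelial proportions, with 3.385 UMIs of *Kdr* for each of *Cdh5* in mesothelial-like and 1.80 in club-like cells, and 1.92 of *Flt1* in alveolar macrophage-like and 2.72 in classical monocyte-like cells. In the KO library the endothelial compartment held 0.40 of *Kdr*, 0.49 of *Tek* and 0.63 of *Flt1*. KO AT2-like cells held 0.59, 0.51 and 0.65, and KO smooth muscle-like cells 0.42, 0.57 and 0.74. *Cdh5* itself had 782 of 4536162 UMIs in WT and 276 of 50449319 in KO AT2-like cells. The summed level of 6 endothelial markers in AT2-like cells, all 6 detected in both libraries, was 885 CPM in the WT and 129 in the KO library, against 7756 and 7991 in general capillary-like cells. In the WT library most of it lay in 1 of the 7 AT2-like clusters, of 102 WT and 31 KO cells, in which the markers summed to 3462 and 3502 CPM and the median depth was 8028 and 9601 UMIs. Scrublet, a doublet caller, marked 46.1% and 77.4% of its cells.

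Members also differed between genotypes outside the endothelium, and the part of endothelial RNA in this was not tested. In AT2-like cells 7 of 8 members with at least 50 UMIs were at least 2-fold lower in the KO library, where 11.3% of all genes were. On the log2 scale the KO library differed from the WT library by -4.84 (-5.10 to -4.59) for *Flt1*, -4.68 (-4.98 to -4.395) for *Tek*, -4.075 (-4.37 to -3.78) for *Kdr* and -4.77 (-5.37 to -4.21) for *Vegfc*, and levels in KO AT2-like cells ran from 0.733 CPM of *Vegfc* to 3.57 of *Flt1*. It was -1.03 (-1.15 to -0.91) for *Vegfa*, and *Nrp1* was the exception at 0.25 (0.18 to 0.33).

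The deep cluster rich in endothelial RNA carried most UMIs of *Flt1*, *Tek*, *Kdr* and *Vegfc* in WT AT2-like cells. It held 371 of the 464 *Flt1* UMIs of WT AT2-like cells, 291 of 326 of *Tek*, 175 of 247 of *Kdr* and 83 of 91 of *Vegfc*. Within it the KO library differed from the WT library by only -0.40 (-0.73 to -0.08) for *Flt1*, -0.53 (-0.91 to -0.15) for *Tek* and -0.84 (-1.685 to -0.07) for *Vegfc*, and *Kdr* was higher in the KO library by 0.41 (0.02 to 0.79). With this cluster left out, a choice made after seeing the data, 4 of 6 members with at least 50 UMIs were 2-fold lower, where 8.07% of all genes were. *Flt1* then differed by -4.04 (-4.49 to -3.59), *Kdr* by -3.65 (-4.13 to -3.17), *Tek* by -2.83 (-3.44 to -2.20) and *Angpt1* by -1.68 (-2.46 to -0.83). *Vegfc* and *Flt4* no longer had 50 UMIs, and the endothelial markers still differed, at 290 CPM in the WT and 108 in the KO library. *Vegfa* was then -0.82 (-0.96 to -0.68), less than 2-fold lower, and the whole-class value was also less than 2-fold with TMM factors, at -0.49, and with all kept cells clustered, at -0.51. Among the 6 AT2-like clusters with at least 50 *Vegfa* UMIs, the deep one included, the ratio ran from -2.71 to 0.18 and was below 0 in 5. The lowest value came from 5 KO UMIs in 17 KO cells, of which Scrublet marked 64.7%. Another, at -0.66, had *Calca* and *Resp18* among its leading genes beside *Sftpc*.

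In alveolar fibroblast-like cells *Vegfc*, *Kdr*, *Flt1* and *Tek* were 2-fold lower, 4 of 9 members, where 3.16% of all genes were, and the endothelial markers summed to 323 and 37.25 CPM. In smooth muscle-like cells the same genes and *Vegfa* were 2-fold lower, 5 of 9, where 8.64% of all genes were, and the markers summed to 1852 and 433. Without the cluster of highest endothelial marker level in each class, 4 of 9 members were 2-fold lower in alveolar fibroblast-like cells, where 2.48% of all genes were, and 2 of 6 (*Vegfa* and *Flt1*) in smooth muscle-like cells, where 3.26% were. The part of endothelial RNA in these differences was not tested. *Angpt1*, at 17.7 and 14.05 CPM in general capillary-like cells, differed by 0.01 (-0.05 to 0.07) in alveolar fibroblast-like cells, a value that ran from -0.08 to 0.64 with the processing (0.64 with 20 principal components). In smooth muscle-like cells *Angpt1* differed by -0.77 (-1.02 to -0.54), which ran from -0.86 to -0.41 with the processing. There the cluster of highest endothelial marker level carried 53.2% of the WT and 12.4% of the KO *Angpt1* UMIs. *Angpt2* was 0.87 (0.40 to 1.36) higher on the log2 scale in KO alveolar fibroblast-like cells, at 9.6 and 17.6 CPM.

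**Figure D4:**
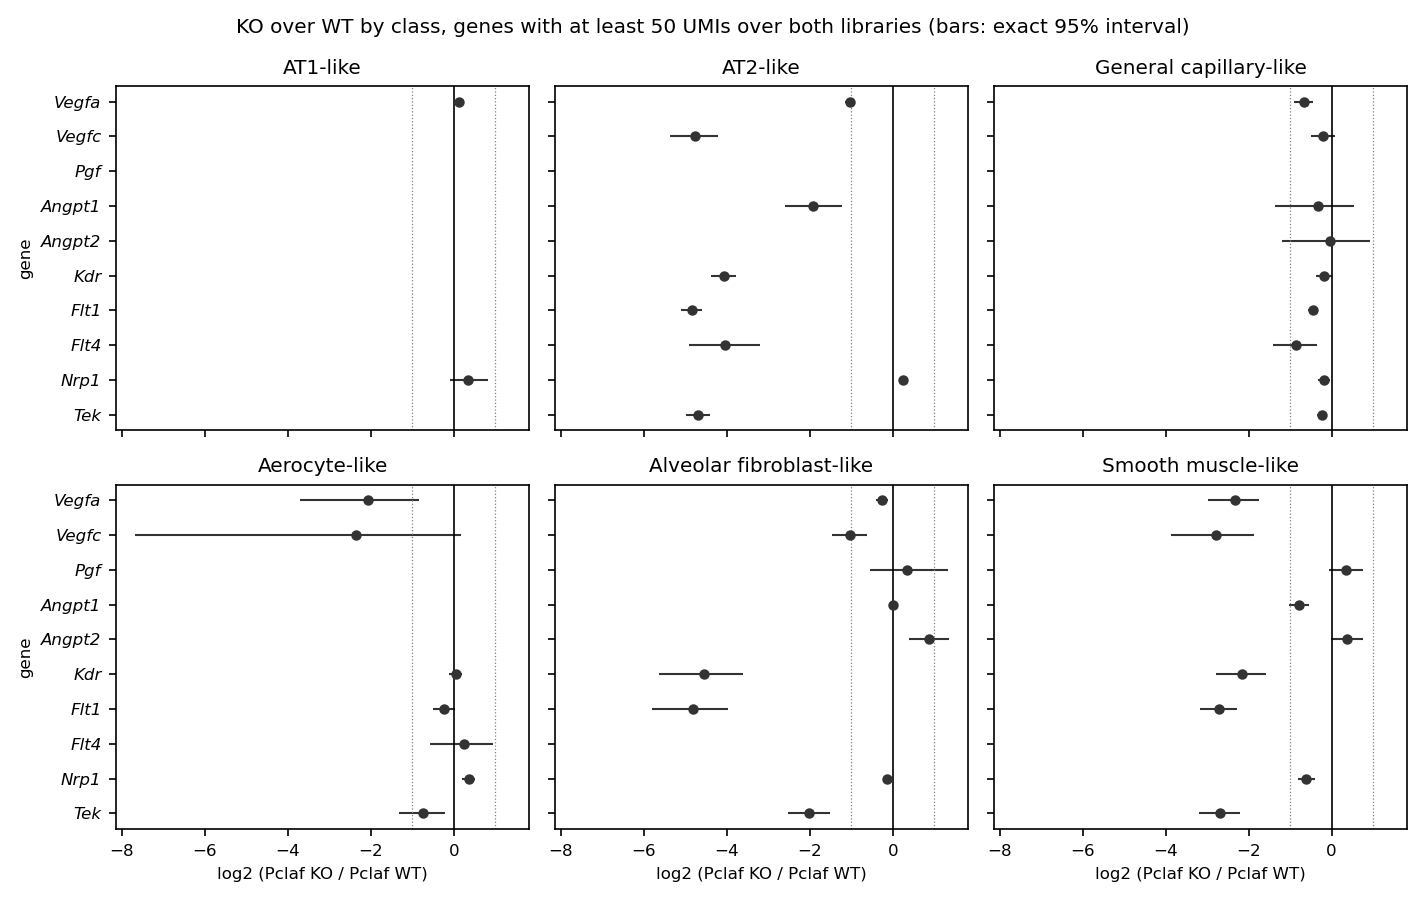
Log2 ratio of *Pclaf* KO over *Pclaf* WT for each member with at least 50 UMIs over both libraries in 6 classes, with exact 95% intervals of counting error as bars and dotted lines at 2-fold. In general capillary-like cells all 9 points lie within the dotted lines, whereas in AT2-like cells 7 of 8 lie left of the lower one.

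Within the endothelium the size of the differences between genotypes varied with the class and the gene. In general capillary-like cells, 7075 in the WT and 419 in the KO library, 0 of 9 members differed by 2-fold, where 8.77% of all genes did. With so few members this count is near the share of all genes. The median log2 ratio of these members was -0.23, against -0.10 for all genes tested. The interval lay below 0 for *Vegfa* at -0.68 (-0.91 to -0.45), *Flt4* at -0.85 (-1.40 to -0.34), *Flt1* at -0.44 (-0.56 to -0.325), *Tek* at -0.23 (-0.34 to -0.11) and *Nrp1* at -0.18 (-0.33 to -0.03). It included 0 for *Kdr* at -0.18 (-0.39 to 0.02) and *Vegfc* at -0.21 (-0.50 to 0.08). Among the 6 clusters of this class the *Vegfa* ratio ran from -1.10 to -0.31 and the *Flt1* ratio from -2.32 to -0.19, both below 0 in 6 of 6, and the *Kdr* ratio was below 0 in 5 of 6. Some of these intervals included 0, and the lowest *Flt1* ratio came from 6 KO UMIs in a cluster of few UMIs per cell. That cluster, of 1285 WT and 116 KO cells, also gave the lowest ratios of *Kdr*, *Tek* and *Vegfa*. These were -3.47, -2.34 and -1.10, from 1, 3 and 4 KO UMIs. Its leading genes held *Inmt*, *Pf4* and *Mgp* beside *Ptprb* and *Gpihbp1*. The clusters are parts of the same libraries and not repeats. Clusters with few UMIs per cell held 41.0% of the WT and 50.1% of the KO general capillary-like cells.

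In aerocyte-like cells, 831 and 53, *Kdr* differed by 0.05 (-0.11 to 0.21) and *Flt1* by -0.23 (-0.50 to 0.02). *Nrp1* was higher in the KO library by 0.36 (0.19 to 0.52), and *Tek* differed by -0.74 (-1.32 to -0.21). *Vegfa* and *Vegfc* were 2-fold lower, 2 of 7 members, where 7.8% of all genes were, from 5 and 1 KO UMIs. The *Vegfa* difference was -2.07 (-3.70 to -0.83) and moved to -1.34 with the barcode limits read as UMIs. In arterial-like cells *Vegfa* differed by -0.50 (-0.92 to -0.10) and *Flt1* by -0.45 (-0.71 to -0.20), and *Kdr* was higher by 0.48 (0.07 to 0.86). *Vegfc* differed there by -2.78 (-8.10 to -0.27), from 1 KO UMI. In venous-like cells the intervals of *Vegfc*, *Kdr*, *Flt1*, *Nrp1* and *Tek* all included 0. With 45 arterial-like and 45 venous-like KO cells, differences smaller than these intervals were not detectable.

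**Figure D5:**
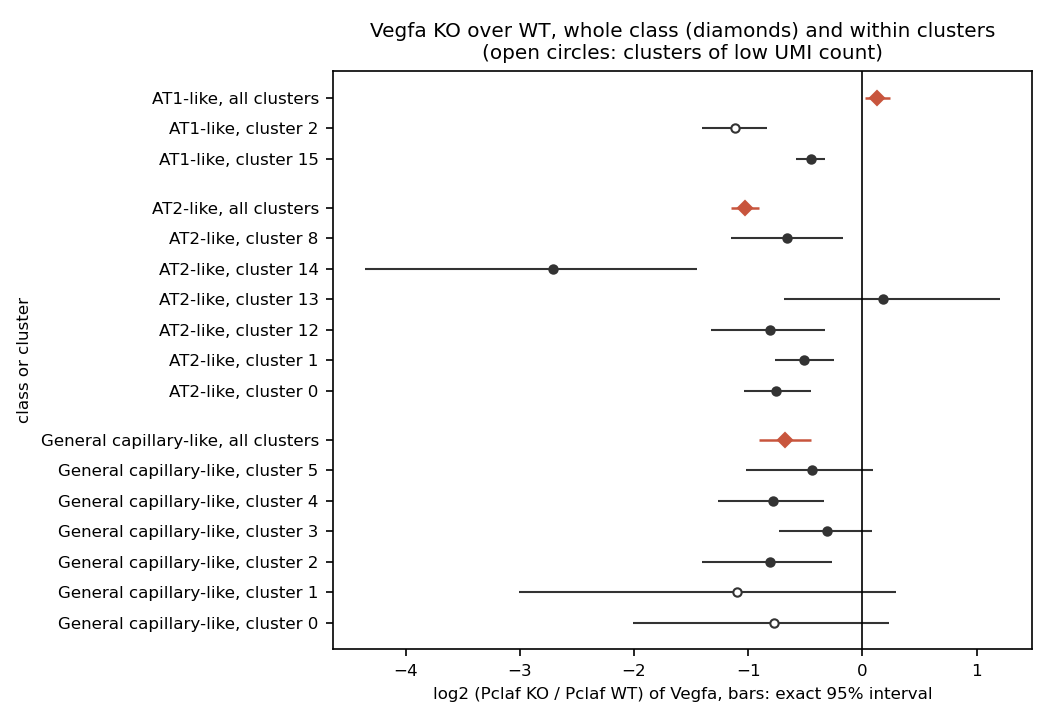
Log2 ratio of *Pclaf* KO over *Pclaf* WT of *Vegfa* in 3 classes as a whole (red diamonds) and in their clusters with at least 50 *Vegfa* UMIs (circles, open for clusters of low UMI count), with exact 95% intervals as bars. The AT1-like diamond lies at 0.13, right of both of its clusters at -0.45 and -1.12, while the general capillary-like diamond lies among its clusters.

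Of 22 further genes of the pathway, 17 had at least 50 UMIs over both libraries in general capillary-like cells and 0 differed by 2-fold between genotypes, where 8.77% of all genes did. Those with intervals below 0 were the hypoxia-regulated transcription factor *Epas1* at -0.67 (-0.74 to -0.61), *Cdh5* at -0.45 (-0.54 to -0.36), the phosphatase *Ptprb* that restrains TEK at -0.43 (-0.50 to -0.35), the TEK partner *Tie1* at -0.30 (-0.52 to -0.09) and the calcineurin inhibitor *Rcan1* at -0.89 (-1.65 to -0.21). In AT2-like cells 7 of 14 such genes were 2-fold lower in the KO library, where 11.3% of all genes were, and 4 of 12 were without the cluster rich in endothelial RNA, where 8.07% were. Response genes also differed between endothelial classes of the WT library. *Apln*, the apelin ligand, was 4.51 (4.24 to 4.78) higher on the log2 scale in aerocyte-like than in general capillary-like cells, and *Ptprb* differed by -1.63 (-1.695 to -1.56). *Esm1* was higher by 3.95 (3.70 to 4.205) and the Notch ligand *Dll4* by 1.43 (1.29 to 1.56) in arterial-like cells. The VEGF-C co-receptor *Nrp2* was higher by 4.09 (3.86 to 4.32) and *Rcan1* by 1.885 (1.67 to 2.095) in venous-like cells, in which *Dll4* differed by -3.17 (-3.845 to -2.56). Of these *Dll4* and *Esm1*, among others, are known to follow VEGF signalling, and the response of each class to VEGF was not tested.

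Among the other ligands *Vegfd* was fibroblastic, at 360 CPM in alveolar fibroblast-like cells of the WT and 279 of the KO library. In AT2-like cells *Vegfb* was 23.15 in the WT and 32.45 in the KO library. The extracellular matrix protein *Svep1* was 427 and 326.5 in alveolar fibroblast-like cells. *Angpt4* had 50 UMIs in each whole library. The hypoxia target *Bnip3* differed between AT1-like cells, the class of highest *Vegfa* level, and AT2-like cells by -0.01 (-0.72 to 0.63) in the WT and by -0.19 (-0.57 to 0.15) in the KO library. The part of hypoxia in the *Vegfa* levels was not tested.

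The genes most like each member were taken by the correlation of log2(CPM + 1) over the 25 named classes with at least 50 cells in the WT library, among 11358 genes, with the value over 16 such classes of the KO library beside it. These points share libraries, depth and class boundaries, and the values are a description. *Tek* was followed by *Adgrl4* (r = 0.98 and 0.96) and *Plvap* (0.98 and 0.88), *Kdr* by *Sema3f* (0.94 and 0.92) and *Cldn5* (0.91 and 0.71), *Flt1* by *Tspan7* (0.96 and 0.75) and *Ripply3* (0.95 and 0.79). *Angpt1* was followed by *Foxf2* (0.94 and 0.92) and *Tnfrsf19* (0.94 and 0.85), *Angpt2* by *Mtss1l* (0.90 and 0.63) and *Smtn* (0.89 and 0.65), *Pgf* by *Dennd2a* (0.88 and 0.69) and *Abcc9* (0.83 and 0.81). *Flt4* was followed by *Clca3a1* (0.91 and 0.49) and *4930578C19Rik* (0.91 and 0.94), *Nrp1* by *Lifr* (0.85 and 0.79) and *Slc16a9* (0.84 and 0.57), *Vegfc* by *Nod1* (0.84 and 0.80) and *Arhgap20* (0.81 and 0.77). The closest genes to *Vegfa* were *Wdr45* (0.79 and 0.63) and *Ankrd46* (0.78 and 0.38), the lowest values among the members.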

How the data were processed

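The authors deposited, for each library, a filtered 10x table of raw UMI counts for each gene in each barcode. Per the file headers these counts came from Cell Ranger 5.0.0, whereas the submitters' processing notes name Cell Ranger 3.1.0, STAR and GRCm38 (mm10). The counts were not normalized. Barcodes with more than 200 and fewer than 5000 genes and under 20% mitochondrial UMIs were kept. Cells were clustered in Seurat 5.3.0 (R 4.3.3) in 2 rounds, compartments and then classes, on 2000 variable genes without the members and the other pathway genes, with 10 principal components and resolution 0.8. A random 1 in 6 of the KO cells entered the first round, and the second round of the epithelium, and the others were projected. Of 75 clusters, 9 stayed unnamed and 2 were left out. Doublets were kept in the main values, and Scrublet in scanpy 1.11.5 marked 6.55% of WT and 2.95% of KO cells for an alternative. UMIs were summed per class and library, and intervals were computed with SciPy 1.17.1. A 2-fold difference among genes with at least 50 UMIs over both sums was the size used for counts, and the function for intervals was tested on simulated data. No p-values were computed, since each genotype was 1 library.

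All 10 members were named whatever their values, with the other pathway genes as counts and by value where they had at least 50 UMIs, and the 2 most correlated genes of each member. The members, marker lists and pathway list were chosen with earlier results of these data known. Alternatives covered the barcode limits, doublets, the clustering, the denominator and edgeR 4.0.16 TMM factors. Promoters were from RefSeq, and proteins were not used here.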

Additional observations from a re-analysis of the deposited data

How the results depend on the processing

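No paired analysis was possible because each genotype was 1 library and no test was run. Of 5 main ratios and 33 others, under 14 alternatives and 2 more chosen after seeing the data (clusters of few UMIs per cell left out, and the cluster of highest endothelial marker level left out of the AT2-like, alveolar fibroblast-like and smooth muscle-like classes), *Vegfa* in AT1-like over AT2-like cells and *Kdr* in aerocyte-like over general capillary-like cells kept their direction throughout. The *Vegfa* ratio of AT1-like over AT2-like cells of the WT library, 3.44, moved to 3.61 with mitochondrial UMIs under 10%, 3.89 with at least 500 genes, 3.13 with the limits read as UMIs, 3.27 with a second random draw, 3.85 with all kept cells clustered, 3.25 at resolution 0.4, 4.59 without low-UMI clusters and 3.665 without the endothelial-rich cluster. That of the KO library, 4.61, moved to 4.70, 4.76, 3.90, 4.83 and 4.28 under the first 5 of these, 5.17 without low-UMI clusters, 4.53 with 20 principal components, 4.95 at resolution 1.2 and 4.01 with TMM factors. *Kdr* in aerocyte-like over general capillary-like cells, 2.80, moved to 2.99 with the limits read as UMIs, 2.71 with all kept cells clustered and 2.62 with TMM factors.

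The KO over WT ratio of *Vegfa* in AT1-like cells, 0.13, reversed to -0.16 with at least 500 genes, -0.40 with the limits read as UMIs, -0.091 with all kept cells clustered and -0.45 without low-UMI clusters, and moved to 0.0089 with mitochondrial UMIs under 10%, 0.61 with a second random draw, 0.37 at resolution 0.4 and 0.40 at resolution 1.2. That of *Kdr* in general capillary-like cells, -0.18, moved to 0.078 with 20 principal components, 0.093 at resolution 0.4 and -0.43 with TMM factors, which shifted all genes of that comparison by -0.25 and those of AT2-like cells by 0.54. The cause was not tested. Of the 30 other ratios whose interval excluded 0, 2 reversed: *Flt1* in aerocyte-like over general capillary-like cells of the WT library, -0.12, became 0.075 as a mean of log-normalized values, and *Angpt1* in pericyte-like over alveolar fibroblast-like cells of the KO library, 0.45, became -0.036 with the limits read as UMIs, -0.19 with TMM factors and -0.053 as a mean of log-normalized values. Of the 3 whose interval included 0, 2 changed sign (means of log-normalized values aside): *Flt1* in aerocyte-like over general capillary-like cells of the KO library, 0.084, ran from -0.12 to 0.19, and *Angpt1* between genotypes in alveolar fibroblast-like cells, 0.0097, from -0.083 to 0.64. In all, 11 of the 33 moved by over 1.5 times under some alternative, most with the limits read as UMIs, which took *Tek* in aerocyte-like over general capillary-like cells of the KO library from -2.04 to -6.20. *Vegfa* and *Flt1* in general capillary-like cells stayed below 0 between genotypes, with ratios of -0.93 to -0.53 and -0.69 to -0.31. Depth limited KO endothelial classes of under 60 cells, *Pgf* and *Angpt2*.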
